A study of Mus musculus with 104 samples.

Results

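The heart libraries of newborn mice were compared with those of mice in the third week of life. DNA methylation had been measured by reduced representation bisulfite sequencing (RRBS), in which genomic DNA is cut with MspI at CCGG sites, treated with bisulfite and sequenced, so that each covered cytosine of a CpG receives a methylation level, the share of its reads that stayed unconverted. The 18 heart libraries used here are part of 104 samples of the series. They were split by age into 8 early libraries (4 of postnatal day 1, P1, and 4 of P5) and 10 late libraries (5 of P15 and 5 of P20). All libraries were labelled as heart of C57BL/6 mice (C57BL/6J in the study's methods), no treatment is labelled, the groups differed by label only in age, and sex is not given. A level in bulk tissue averages over cardiomyocytes, fibroblasts, endothelial and blood cells, so a change in the share of a cell type and a change within a cell type cannot be told apart. Neither litters nor separate animals are given in the labels, and p-values therefore measure the spread between these libraries.

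DNA methylation at CpGs is laid down by DNA methyltransferases and is copied at each cell division. In mammals most CpGs in gene bodies and between genes are methylated, whereas CpG-dense promoters are usually free of it, and levels between these extremes often lie in enhancers and at the borders of CpG-dense stretches. In the first weeks after birth the mouse heart turns from glucose to fatty acids as its main fuel, replaces fetal by adult forms of contractile proteins, and its cardiomyocytes leave the cell cycle.

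The heart table held 53520 cytosines, all of which had at least 4 values on each side. Between 23.5% and 100% of them had a value in a given library. The lowest shares were 23.5% and 30%, in P20 replicates 5 and 4, and 3758 cytosines had a value in all 18 libraries. Each library lay closer to the mean of the other hearts (root mean square distance of 11.5 to 19.9 points over 28236 cytosines shared with the other tables) than to the mean liver profile (15.2 to 23.6 points) or the mean muscle profile (15.9 to 23.5 points). Libraries P5 replicate 2, P15 replicate 2 and P15 replicate 5 stood apart. Their deviations from the other libraries of their side had an SD of 19.9, 20.3 and 20.0 points, against 11.96 to 17.1 points in the other libraries, and 24.9%, 27.8% and 30.6% of their values were exactly 0 or 100%. Refits without these 3 libraries were run for the counts of changed cytosines and regions and for the differences from liver and muscle. They were also run for the mean level of a library and its share of highly methylated cytosines. The means by class, steps between ages, scores of picked cytosines, gene lists and heart levels at cytosines called in liver had no such refit. Whether those results rest on the 3 libraries together was not tested.

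A larger share of short stretches of neighbouring cytosines than of single cytosines passed the limits given below, 1.41% against 0.125%. A region was defined as 3 or more measured cytosines with gaps of at most 100 bp, and its level in a library was the mean of its values. Of 5886 regions tested with limma, 83 (1.41%) passed the limits used throughout: means more than 5 percentage points apart, and p no higher than 0.1 after Benjamini-Hochberg adjustment. Of these, 69 regions (1.17% of those tested) gained methylation from the early to the late side and 14 (0.238%) lost it. The median change was 18.6 points among the regions that gained and -18.9 points among those that lost methylation. Regions that rose went from a median early level of 23.6% to a late level of 47.2%, and regions that fell from 59.9% to 33.1%. Without the 3 libraries that stood apart, 91 regions passed, and 51 of these were among the 83. The count ranged from 36 to 109 when a single library was left out, lowest without P1 replicate 5. On the logit scale it was 48.

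Among the regions that gained methylation, the smallest p belonged to a stretch of 4 cytosines on chromosome 16 (chr16:30121050-30121080, mm9), an intergenic place 54628 bp downstream of the nearest annotated start of Hes1, a transcriptional repressor and target of Notch signalling. The next was a coding exon of Btnl9, a butyrophilin-like membrane protein (chr11:48982685-48982805, 9 cytosines). A coding exon of Nod1, an intracellular sensor of bacterial cell wall fragments, was the sixth (chr6:54894429-54894473, 5 cytosines). Among the regions that lost methylation, the smallest p belonged to 3 cytosines 2.3 kb upstream of Nxn, which encodes a redox protein that binds Dishevelled in Wnt signalling (chr11:76214981-76215028), and the next to 4 cytosines in an intron of Trio, a guanine nucleotide exchange factor (chr15:27862304-27862351). Their mm9 sequences are given on the plus strand to show how the measured CpGs lie, with the measured CpGs in capitals.
Near Hes1, chr16:30121038-30121092: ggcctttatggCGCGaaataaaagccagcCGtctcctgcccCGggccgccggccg
Btnl9 exon, chr11:48982673-48982817: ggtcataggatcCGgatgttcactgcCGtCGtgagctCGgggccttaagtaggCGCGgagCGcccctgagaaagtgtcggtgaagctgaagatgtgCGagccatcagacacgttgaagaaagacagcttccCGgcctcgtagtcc
Nod1 exon, chr6:54894417-54894485: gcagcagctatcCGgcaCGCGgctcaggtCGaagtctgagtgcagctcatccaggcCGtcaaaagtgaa
Upstream of Nxn, chr11:76214969-76215040: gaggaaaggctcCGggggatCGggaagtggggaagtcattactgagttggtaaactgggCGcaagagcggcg
Trio intron, chr15:27862292-27862363: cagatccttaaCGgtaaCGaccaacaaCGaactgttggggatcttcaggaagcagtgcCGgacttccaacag
The Hes1 stretch held 7 CpGs in the 55 bases shown, of which 4 were measured, and the Trio stretch held 4 in 72 bases, all of them measured.

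The region near Hes1 ranged from 15.2% to 29.3% in the 8 early libraries, with a median of 18.8%, and from 38.2% to 53.3% in the 7 late libraries with a value, with a median of 48.7%. P20 replicates 3, 4 and 5 had no value there. No late library reached down to the early range, and the mean rose by 26.4 points (SE 3.24, limma adjusted p = 0.00164). The Btnl9 exon lay between 3.88% and 13.9% (median 9.75%) in the early libraries and between 17.97% and 38.3% (median 26.0%) in the 10 late libraries, again without overlap. Its mean rose from 9.63% ± 3.12 (SD, n = 8) to 26.5% ± 5.79 (SD, n = 10), with a limma adjusted p of 0.00749. In the Nod1 exon the early libraries spanned 27.1% to 60.2% (median 37.1%) and the late libraries 54.5% to 76.9% (median 63.3%). The sides overlapped there through 1 early library, P5 replicate 2 at 60.2%, one of the 3 that stood apart, and the limma adjusted p was 0.00887.

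An intron of Man1c1, a Golgi mannosidase that trims N-glycans (chr4:134215914-134216048), rose from 17.5% ± 7.76 (SD, n = 8) to 45.4% ± 11.9 (SD, n = 10). By age its mean was 15.1% (P1), 19.8% (P5), 39.2% (P15) and then 51.5% (P20). A coding exon of Ppp1r16b, a regulatory subunit of protein phosphatase 1 (chr2:158582920-158583042), rose from 43.0% to 59.0% in the early libraries (median 53.4%) to 62.9% to 78.1% in the late libraries (median 69.2%), with no overlap. An intergenic stretch of 7 cytosines on chromosome 12 (chr12:12687243-12687504) rose by 17.4 points (SE 2.93). The limma adjusted p was 0.00887 for each of these 3 regions.

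Upstream of Nxn the early libraries lay between 53.2% and 92.1% (median 69.2%) and the late libraries between 18.4% and 52.1% (median 40.3%), without overlap. The mean fell by 32.0 points (SE 5.58, limma adjusted p = 0.0104). The Trio intron fell from a range of 38.4% to 71.8% (median 66.3%) to a range of 9.19% to 44.2% (median 26.5%), with overlapping sides and a limma adjusted p of 0.0109. From P1 over P5 and P15 to P20, its means were 69.7%, 51.5%, 27.2% and 20.3%. The P20 mean rests on replicates 1 and 2 alone, at 31.3% and 9.19%. An intron of Eml1, which encodes a microtubule-associated protein (chr12:109613018-109613133), had means of 70.4%, 48.1%, 32.2% and 23.2% at the same ages and fell by 31.6 points (SE 6.35, limma adjusted p = 0.0272). A coding exon of Mast2, a microtubule-associated kinase (chr4:115980315-115980434), fell from 82.0% ± 5.85 (SD, n = 7) to 63.3% ± 8.41 (SD, n = 8), and no early library was as low as the highest late one. The remaining regions named were an intron of Tcf4, a basic helix-loop-helix transcription factor, which fell by 23.1 points (SE 5.25, limma adjusted p = 0.057), and an intergenic stretch on chromosome 3 (chr3:45879627-45879673), which fell by 15.3 points (SE 3.53, limma adjusted p = 0.0594).

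**Figure D1:**
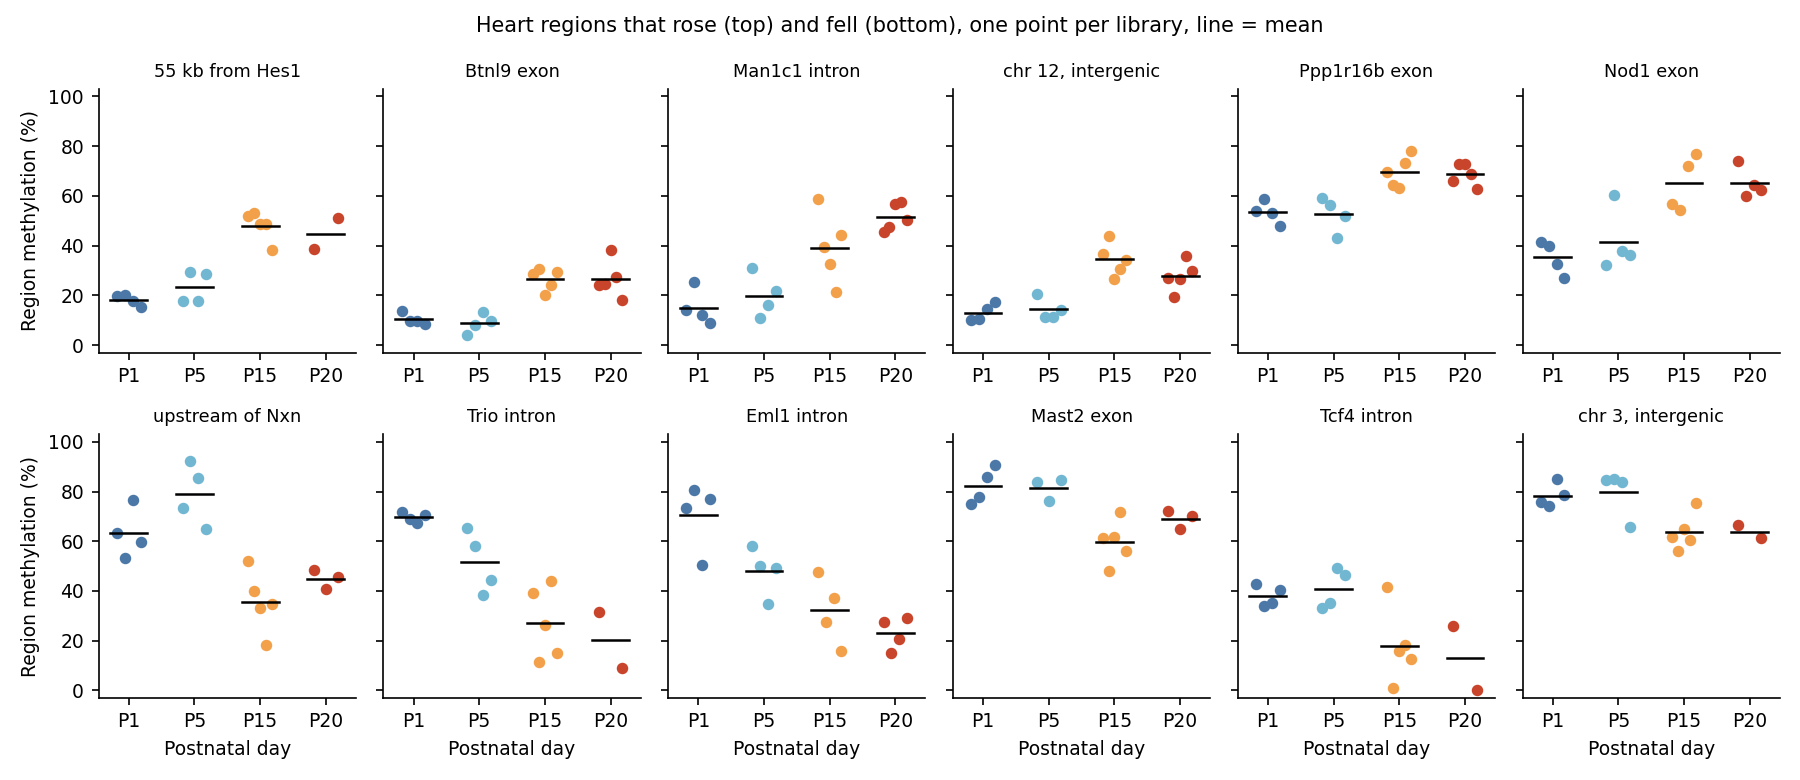
Methylation level (percent, y axis) of the 12 named heart regions against age (P1, P5, P15, P20), with regions that rose in the top row and regions that fell in the bottom row. Each point is a library and each line is the mean of an age. Near Hes1 the early libraries lie at 15.2% to 29.3% and the late libraries at 38.2% to 53.3%.

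Of the 83 regions, 13 had early and late libraries that did not overlap, 11 of them rising and 2 falling. The same held for 0.34% of all tested regions, and 1.41% of all passed the test. By position, 34 of 1774 tested regions in introns passed (1.92%, 26 up and 8 down), 26 of 1485 in exons (1.75%, 24 up and 2 down), 19 of 2225 between genes (0.854%, 16 up and 3 down) and 4 of 402 in promoters (0.995%, 3 up and 1 down). A promoter was taken as the 1 kb before an annotated transcript start, with microRNA and other noncoding genes included.

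Tested one by one, 67 of the 53520 cytosines (0.125%) passed the same limits, 49 upwards (0.0916%) and 18 downwards (0.0336%). All 67 were autosomal. Their changes ranged from 16.9 to 51.9 points in size, with a median of 32.5 points, and 41 exceeded 30 points. The cytosines that rose had a median level of 29.6% early and 67.6% late, and those that fell 64.7% early and 25.4% late. In 24 of the 67 the early and late libraries did not overlap, as in 0.0972% of all cytosines. An unadjusted p under 0.05 was found at 4758 cytosines, where 5% of the tests would give 2676, and 3391 of these were higher late. Without the 3 libraries that stood apart, 71 cytosines passed, of which 30 were among the 67.

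Among the cytosines that rose, the one with the smallest p lay 109 bp upstream of Mir219-2, a microRNA gene (chr2:29701356, minus strand). Its CpG is in capitals in the plus-strand stretch of mm9 below, shown because it is the one of the 20 cytosines named in a promoter as defined above. The nearest protein-coding start, that of Urm1, was 4188 bp away.
Upstream of Mir219-2, chr2:29701326-29701386: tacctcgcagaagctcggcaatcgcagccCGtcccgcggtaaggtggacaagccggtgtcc
The early libraries ranged there from 12.5% to 69.2% (median 36.7%) and the late libraries from 65.4% to 93.9% (median 83.2%), with 1 early library, P5 replicate 3, inside the late range and a limma adjusted p of 0.0274. A cytosine in the Nod1 exon (chr6:54894436) rose from 48.7% ± 9.95 (SD, n = 8) to 83.0% ± 10.8 (SD, n = 8) with no overlap between the sides. Another in an intron of Gm20388 (chr8:123883028) rose by 38.3 points (SE 5.73), and one 165388 bp upstream of Dkk2, a secreted Wnt antagonist (chr3:131582868), rose by 36.3 points (SE 5.8). A cytosine in an intron of Scube1, a secreted and surface glycoprotein, rose by 28.2 points, an intergenic cytosine 48.7 kb upstream of Rapgef1, an exchange factor for Rap1, by 37.7 points, and one in an intron of Ccdc162 by 30.8 points. A cytosine in a coding exon of Kifc3, a kinesin motor, rose by 31.7 points, one in an intron of Pcbp4, an RNA-binding protein, by 17.9 points, and one in a UTR of Mfsd6l, 77 bp from its start, by 33.4 points. Limma adjusted p-values of the 10 cytosines named lay between 0.0274 and 0.0763. The one gene with at least 3 cytosines called was Rps6ka4, which encodes a stress-activated kinase, with 3 in a coding exon that all rose, by 37.1 to 41.8 points.

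The cytosine upstream of Nxn was also the one with the smallest p of all (chr11:76214981). It lay between 69.2% and 91.7% in the early libraries (median 77.6%) and between 16.7% and 63.6% in the late libraries (median 39.6%). An intergenic cytosine on chromosome 15 (chr15:85515954) fell from 72.4% ± 14.2 (SD, n = 8) to 27.6% ± 14.4 (SD, n = 8). It lies 49.5 kb upstream of Ppara, the nuclear receptor that switches on genes of fatty acid oxidation, and 21.1 kb and 21.8 kb upstream of the microRNA genes Mirlet7c-2 and Mirlet7b. Limma adjusted p-values were 0.0274 for both cytosines. A cytosine in a coding exon of E2f4, a repressor of cell cycle genes (chr8:107822501), fell from a range of 18.4% to 61.1% (median 37.3%) to a range of 0% to 19.2% (median 10.0%), with sides that overlapped and a limma adjusted p of 0.0757. A cytosine in an intron of Igf1r, the receptor of insulin-like growth factor 1 (chr7:75368497), fell by 24.2 points (SE 4.69), and one in an intron of Myh13, a myosin heavy chain of eye muscles (chr11:67160399), by 21.8 points (SE 4.21).

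The other cytosines named that fell were single positions in a UTR of 3930402G23Rik (27.5 points), an intron of Gm16719, 27.3 kb upstream of Insig1, which restrains sterol synthesis (38.7 points), a coding exon of Tgm1, a transglutaminase (33.6 points), a UTR of Rangap1, the GTPase activator of Ran (41.4 points), and an intron of Tuba8, an alpha-tubulin (21.1 points). Limma adjusted p-values of the falling cytosines named lay between 0.0274 and 0.0969. Calls in both directions depended on the settings. Among the 34 alternatives run for a cytosine, calls that fell were lost in 26 for Tuba8, 25 for Tgm1, 23 each for Igf1r, Myh13 and Rangap1, 20 for 3930402G23Rik and 15 for E2f4, and in 18 of 33 for Gm16719. Calls that rose were lost in 17 for Kifc3, 16 for Mfsd6l, 15 for Pcbp4, 12 for Ccdc162, 11 near Rapgef1 and 7 for Scube1. On the logit scale all 20 cytosines named lost their call, with limma adjusted p-values from 0.199 (cytosine chr2:29701356) to 0.418 (cytosine chr11:67160399), while 10 of the 12 regions named kept theirs. In 6 of these 20 cytosines, which were chosen for their small p, the sides did not overlap, as in 0.0972% of all cytosines. Of the 67 cytosines, 56 had another measured cytosine within 100 bp. Counted once each and without the calls themselves, 119 cytosines lay this near to a call, and 107 of them (89.9%) had a change of the same sign as the call. Of all cytosines, 60.8% had a higher late mean, and 49 of the 67 calls rose. Among the cytosines named, E2f4 and Tgm1 had 1 of 4 and 2 of 6 neighbours of the same sign. Their mean neighbour changes were 2.14 and -1.36 points. The named cytosine near Mir219-2 had 5 of 6. Among the other calls, chr4:128916006 had 0 of 1, chr6:115449120 1 of 2, chr2:74974977 2 of 3, chr7:148155914 3 of 4 and chr2:29701342 5 of 6. These other calls were given after their values were seen. In the remaining calls with a neighbour, all neighbours had the same sign. Neighbouring cytosines often share reads and are not independent.

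By class, 32 of 17712 tested cytosines in introns were called (0.181%), 15 of 10457 in exons (0.143%), 5 of 4285 in promoters (0.117%) and 15 of 21066 between genes (0.0712%). The share over all cytosines was 0.125%. By CpG density, 15 of 9195 cytosines with 20 or more CpGs within 200 bp on either side were called (0.163%, 14 up and 1 down), 26 of 20048 with 10 to 19 (0.13%, 22 up and 4 down) and 26 of 24154 with fewer than 10 (0.108%, 13 up and 13 down).

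The mean level of a library shifted by less. Over the 3758 cytosines with a value in all libraries, the early libraries ranged from 41.5% to 46.8% and the late libraries from 44.8% to 48.7%, with overlapping sides. The mean rose from 45.2% ± 1.72 (SD, n = 8) to 46.9% ± 1.43 (SD, n = 10), and the two-sided exact permutation test gave p = 0.0335. This p depended on single libraries. It rose to 0.083, 0.0627, 0.0527, 0.0606, 0.061, 0.0552 and 0.0599 in the exact permutation test without P5 replicate 3, P5 replicate 5, P15 replicates 1, 2 and 3, and P20 replicates 1 and 4 in turn. The share of cytosines over 80% methylated rose from 22.9% ± 1.75 (SD, n = 8) to 25.1% ± 0.984 (SD, n = 10), with an exact permutation p of 0.00169. The share under 20% changed from 34.6% ± 2.1 (SD, n = 8) to 32% ± 2.7 (SD, n = 10), with an exact permutation p of 0.0414. Beside these, cytosines with a value made up 96.7% ± 2.99 (SD, n = 8) early and 77.9% ± 28.7 (SD, n = 10) late (exact permutation p = 0.08). Values at exactly 0 or 100% made up 15.3% ± 4.94 (SD, n = 8) early and 19.98% ± 5.95 (SD, n = 10) late (exact permutation p = 0.0918), and the part of these in the shares was not tested. Without the 3 libraries that stood apart the differences were 1.76 points for the mean (exact permutation p = 0.0402) and 2.32 points for the share over 80% (exact permutation p = 0.00218). The share over 80% lay between 19.5% and 24.8% in the early libraries and between 23.7% and 26.6% in the late libraries. When all values of each library entered, which takes different cytosines from each library, the differences were 1.54 points for the mean (exact permutation p = 0.212) and 2.28 points for the share (exact permutation p = 0.0572).

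**Figure D2:**
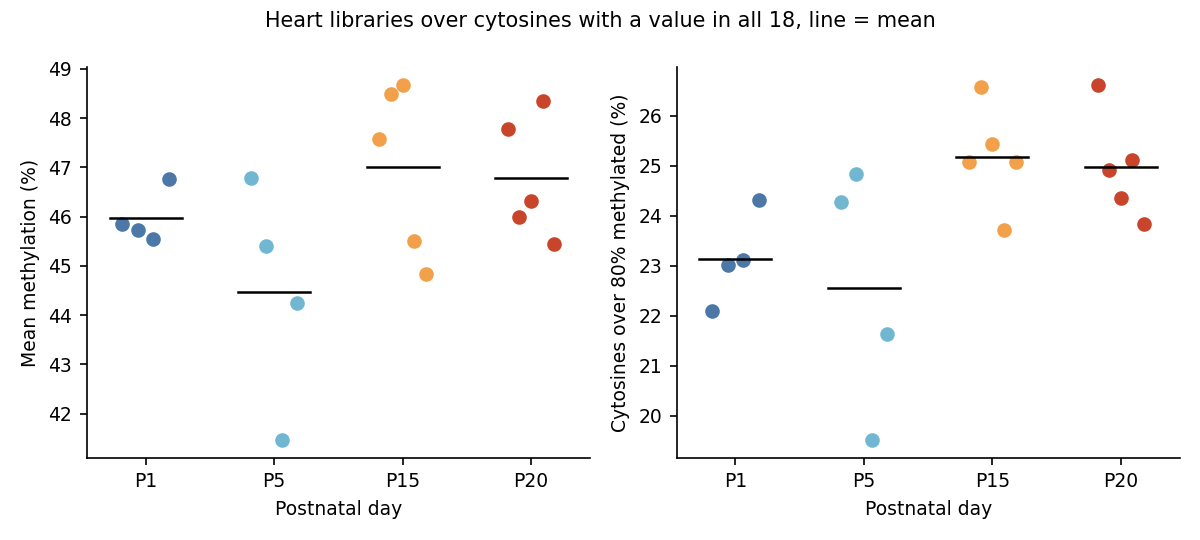
Mean methylation (left, percent) and share of cytosines over 80% methylated (right, percent) of each heart library against age, over the 3758 cytosines with a value in all 18 libraries. Points are libraries and lines are means of an age. The y axes do not start at 0, and the late libraries lie at 23.7% to 26.6% on the right, above most early ones.

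Split into 11 overlapping classes by level, position and CpG density, the same 3758 cytosines passed an adjusted exact permutation p of 0.05 in 6 classes. At 885 cytosines averaging over 80%, the library mean rose from 87.3% ± 0.817 (SD, n = 8) to 88.9% ± 0.481 (SD, n = 10), with an exact permutation p of 0.00016 (adjusted 0.00088 over the 11 classes). At 596 exonic cytosines it rose from 43.2% ± 0.948 (SD, n = 8) to 45.3% ± 0.834 (SD, n = 10), with an exact permutation p of 0.000114 (adjusted 0.00088). At 314 promoter cytosines the rise was 2.1 points (adjusted exact permutation p = 0.00283) and at 1050 intronic ones 1.79 points (adjusted exact permutation p = 0.0231). At 1291 cytosines averaging under 20% the rise was 1.53 points (adjusted exact permutation p = 0.0247), and at 1296 with 10 to 19 CpGs within 200 bp on either side 2.2 points (adjusted exact permutation p = 0.0026). At 1798 intergenic cytosines the difference of 1.38 points did not pass (adjusted exact permutation p = 0.228).

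Whether the ages pooled on each side differed was asked with the ages apart. In a limma fit with age as a 4-level factor, 0 of 53426 cytosines (0%) passed between P1 and P5, with 2446 at an unadjusted p under 0.05, and 0 (0%) passed between P15 and P20, with 3142 at an unadjusted p under 0.05. Without P20 replicate 1 and without P20 replicate 3, the count between P15 and P20 was 4 and 1. Between P5 and P15 the same fit called 4 (0.00749%), with 4072 at an unadjusted p under 0.05. The mean over all cytosines changed by -1.06 points from P1 to P5, by 2.23 points from P5 to P15 and by 0.401 points from P15 to P20. On the logit scale 3 cytosines passed between P15 and P20 and 0 between P1 and P5.

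Whether the same cytosines changed in other libraries was asked by picking cytosines in 2 of the ages and measuring them in the other 2. The 1000 cytosines with the smallest limma p between P1 and P20 were picked, 633 rising and 367 falling. In the P5 and P15 libraries, which had no part in the pick, those that rose gained 7.7 points and the change was -4.48 points in those that fell, against a gain of 2.19 points over all 44625 cytosines eligible. A score per library, the mean deviation in the picked direction, was -3.34, -3.16, -3.06 and -4.22 points in P5 replicates 1, 2, 3 and 5. It was 3.38, 4.92, 3.51, 0.863 and 1.8 points in P15 replicates 1 to 5. All P15 libraries scored above all P5 libraries, a difference of 6.34 points, and the two-sided exact permutation p of 0.00794 is the smallest that 4 against 5 libraries allow.

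With the roles exchanged, 1000 cytosines picked on P5 and P15 (728 rising, 272 falling) were measured in P1 and P20. Scores were -2.91, -2.53, -2.83 and -1.04 points in P1 replicates 2 to 5, and 3.84, 2.92, 2.22, 1.04 and 1.21 points in P20 replicates 1 to 5. The sides did not overlap, and the difference was 4.57 points (exact permutation p = 0.00794). The change was 5.13 points where the pick had risen and -5.58 points where it had fallen, against 1.57 points over all 52961 cytosines eligible. Restricted to cytosines with a value in all 18 libraries, of which there are 3758, the differences shrank to 0.921 points (exact permutation p = 0.175) and 1.18 points (exact permutation p = 0.0476).

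**Figure D3:**
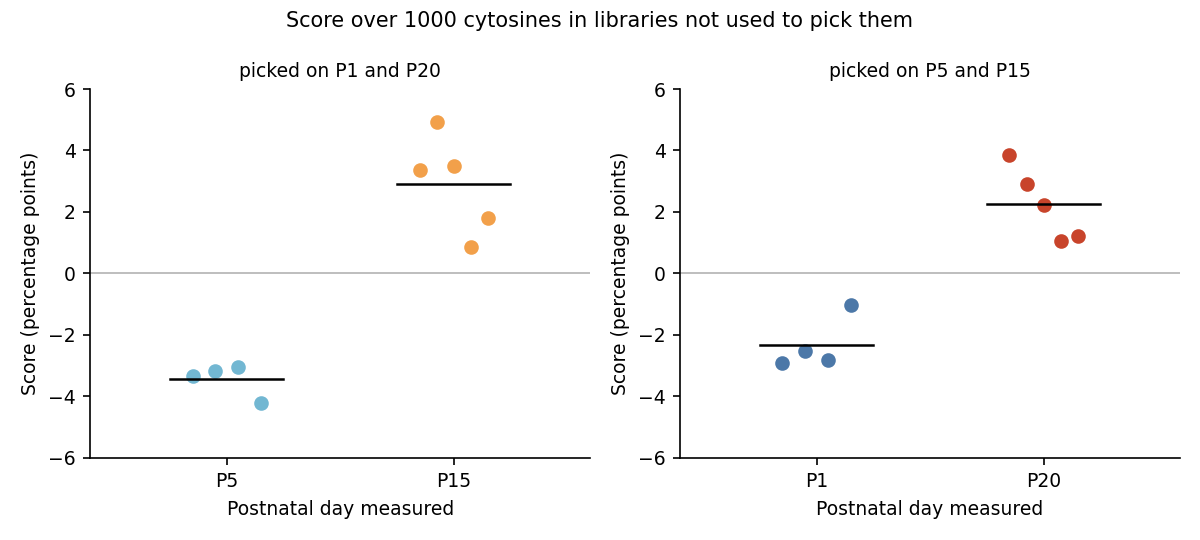
Score per library (percentage points, y axis) over 1000 cytosines picked in other ages, measured at P5 and P15 (left) and at P1 and P20 (right). Points are libraries, lines are means and the grey line marks 0. All P15 libraries score from 0.863 to 4.92 and all P5 libraries from -4.22 to -3.06.

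Genes of heart function were read from lists of 10 themes, each counted over gene bodies and 1 kb promoters. Sarcomere genes, which encode the contractile apparatus, held 138 cytosines in 34 genes, and 0 of these were called by limma. Over all cytosines 0.125% were called, so that a count of 0 in a list of this size is near the background, and the same holds for the lists below with 0 called. Their median change was 4.43 points against 1.9 points over all cytosines, with 18 rising and 3 falling at an unadjusted p under 0.05 (15.2% of the list, against 8.89% of all cytosines tested, 3391 rising and 1367 falling). The smallest p among them was in an intron of Ttn, the giant spring protein titin, which went from 13.1% ± 9.91 (SD, n = 8) to 33.1% ± 13.4 (SD, n = 8) and did not pass (limma adjusted p = 0.267). Cardiac transcription factors held 345 cytosines in 47 genes, with 0 called, a median change of 3.66 points, and 37 rising against 7 falling at an unadjusted p under 0.05 (12.8% of the list). Their smallest p was in an intron of Hopx, a homeodomain protein of cardiac progenitors and myocytes, where the early libraries spanned 10.3% to 62.3% and the late libraries 51.6% to 100% (limma adjusted p = 0.105). At the level of regions 3 of 44 regions in this list passed, all upwards, against 1.17% of all regions that passed upwards, in introns of Hopx, of Zfpm1, a cofactor of GATA factors, and of Prdm16, a zinc finger regulator. These regions, like all list regions named here, were chosen after their values had been seen. Their means rose by 36.2, 17.8 and 24.0 points. No region passed among 14 of sarcomere genes, 31 of calcium handling, ion channel and junction genes, 8 of cell cycle genes, 10 of DNA methylation and chromatin enzymes, 17 of endothelial and smooth muscle genes and 5 of blood and immune genes, where 1.41% of all regions passed.

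Genes of fatty acid oxidation, glycolysis and mitochondria held 169 cytosines in 39 genes, with 0 called, and 11 rising and 11 falling at an unadjusted p under 0.05. Of 21 regions in this list 2 passed, both downwards, against 0.238% of all regions that passed downwards. An intron of Epas1, the hypoxia-inducible factor HIF-2α, fell from a range of 54.2% to 82.4% (median 77.3%) to a range of 0% to 71.1% (median 36.3%) with a limma adjusted p of 0.0601. A coding exon of Eno3, the muscle enolase, fell from 90.6% ± 6.26 (SD, n = 8) to 74.6% ± 9.85 (SD, n = 8) with a limma adjusted p of 0.0885. Growth and signalling genes held 367 cytosines in 49 genes, with 1 called, the Igf1r cytosine given above, against 0.125% of all cytosines called, and a median change of 2.41 points. The Igf1r region passed as the single one of 45 in its list, against 1.41% of all regions, falling by 14.7 points (limma adjusted p = 0.0786). Cell cycle genes held 68 cytosines in 25 genes, with the E2f4 cytosine as the one call (0.125% of all cytosines were called) and a median change of 0.368 points.

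Calcium handling, ion channel and junction genes held 273 cytosines in 42 genes with 0 called, against 0.125% of all, and a median change of 1.55 points, against 1.9 points over all cytosines. Their smallest p was in a coding exon of Cacna1c, the pore of the L-type calcium channel (37.5% ± 11.4 early, SD, n = 8, and 13.8% ± 11.7 late, SD, n = 8, limma adjusted p = 0.156). Genes of DNA methylation and chromatin enzymes held 81 cytosines in 17 genes with 0 called, and the smallest p was in a UTR of Mbd2, which binds methylated CpGs (37.1% early and 65.96% late, limma adjusted p = 0.103).

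Markers of other cells of the heart were counted in the same way, beside 0.125% called and a median change of 1.9 points over all cytosines. Fibroblast and matrix genes held 176 cytosines in 34 genes, with 0 called and a median change of 2.49 points. Of their 21 regions 1 passed, against 1.41% of all regions, an intron of Col4a1, a basement membrane collagen, which fell by 17.0 points (limma adjusted p = 0.0931). Endothelial and smooth muscle genes held 135 cytosines in 28 genes, with 0 called, a median change of 0.493 points, and the smallest p in an intron of Pecam1 (52.4% early and 28.8% late, limma adjusted p = 0.291). Blood and immune genes held 73 cytosines in 17 genes, with 0 called, a median change of 1.73 points, and the smallest p in a coding exon of Epor, the erythropoietin receptor (4.41% early and 26.5% late, limma adjusted p = 0.415). In Loxl2, a collagen cross-linking enzyme, an intronic cytosine had 52.7% early and 84.1% late (limma adjusted p = 0.128), the smallest p of the fibroblast list.

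The same contrast in the other tissues of these ages had 8 early and 8 late libraries each. In liver it called 6360 of 70259 cytosines (9.05%) and in skeletal muscle 41 of 46085 (0.089%). At 3071 cytosines that were called to rise in liver and measured in heart, the heart libraries averaged 52.1% ± 2.42 (SD, n = 8) early and 53.6% ± 3.03 (SD, n = 10) late, and the difference of 1.51 points did not pass (exact permutation p = 0.269). At 842 that were called to fall in liver, with a mean change of -25.8 points, the difference in heart was 0.456 points (exact permutation p = 0.729). Averaged per cytosine, the heart change was 1.59 points at the 3071 and 1.33 points at the 842, against 1.85 points over all cytosines. Of the 3071, 10 were also called to rise in heart, where 0.0916% of all cytosines were. Of the 842, 0 were called to fall in heart, where 0.0336% of all cytosines were.

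The change in heart was set against that in liver by an interaction term. Of 41242 cytosines tested, 1234 (2.99%) differed, 439 with a higher and 795 with a lower change in heart. Over the 795, the mean change was -11.6 points in heart and 27.3 points in liver, and over the 439 it was 13.2 points in heart and -23.9 points in liver. These sets were chosen for a difference between the tissues, and their means are a description. An intergenic cytosine 1620 bp from the end of H6pd and 22812 bp upstream of Spsb1 (chr4:149351964) rose from 42.8% ± 20.3 to 74.8% ± 12.6 in heart and fell from 73.7% ± 4.47 to 30.3% ± 7.65 in liver (SDs over libraries, limma adjusted p = 0.000194). A cytosine in an intron of Faim2, an inhibitor of Fas-mediated cell death (chr15:99336527), fell from 38.0% to 14.2% in heart and rose from 14.6% to 73.5% in liver (limma adjusted p = 0.00014). The cytosine of 3930402G23Rik that fell by 27.5 points in heart rose by 30.4 points in liver (limma adjusted p = 0.00014), and one in Inpp5j and Pla2g3, which overlap there, fell by 27.4 points in heart and rose by 36.9 points in liver (limma adjusted p = 0.000292).

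Against skeletal muscle, 10 of 31839 cytosines (0.0314%) differed, 9 with a higher change in heart. A pair of cytosines 10 bp apart in a coding exon of Mtap4, a microtubule-binding protein (chr9:109954977 and chr9:109954987), rose by 39.1 and 33.0 points in heart and fell by 35.7 and 31.8 points in muscle (limma adjusted p = 0.0391 for each). An intergenic cytosine on chromosome 5 (chr5:122593732), 4.8 kb upstream of Ccdc63, 14.6 kb upstream of Ppp1cc, a catalytic subunit of protein phosphatase 1, and 42.8 kb from the start of Myl2, the ventricular myosin light chain, lay at 4.02% early and 10.8% late in heart and fell from 38.4% to 8.38% in muscle (limma adjusted p = 0.011). A UTR cytosine of Casz1, a zinc finger factor of heart development (chr4:148326769), went from 53.6% to 39.3% in heart and from 10.3% to 41.1% in muscle (limma adjusted p = 0.0484). This count rested on single libraries. It was 3 without P5 replicate 2, 17 without P5 replicate 1, and 5 without the 3 libraries that stood apart.

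The 12 named regions were read in the liver and muscle libraries, which had no part in their choice, with 24 exact permutation tests adjusted together. In muscle the Man1c1 intron rose by 17.3 points (adjusted exact permutation p = 0.042), the Hes1 region from 22.1% ± 6.38 (SD, n = 8) to 40.6% ± 11.0 (SD, n = 7) (adjusted exact permutation p = 0.0428) and the Nod1 exon by 24.5 points (adjusted exact permutation p = 0.05). In liver the Hes1 region rose from 45.4% ± 17.2 (SD, n = 8) to 72.2% ± 9.06 (SD, n = 6), with an adjusted exact permutation p of 0.05, and the other 11 regions did not pass. Liver values for the Man1c1 intron and the Nod1 exon were -2.88 and -3.17 points. Upstream of Nxn muscle was already low, at 15.7% early and 14.5% late, and the Eml1 intron was at 19.5% and 19.4% there. Of the regions that rose in heart, 43 of 53 with values in muscle had a higher late mean there, as did 52.3% of all 4398 heart regions measured in muscle. In liver it was 47 of 64, close to the 72.4% of all 5197 heart regions measured there. Of the regions that fell in heart, 11 of 13 in muscle and 7 of 14 in liver had a lower late mean, against 47.7% and 27.6% of all.

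**Figure D4:**
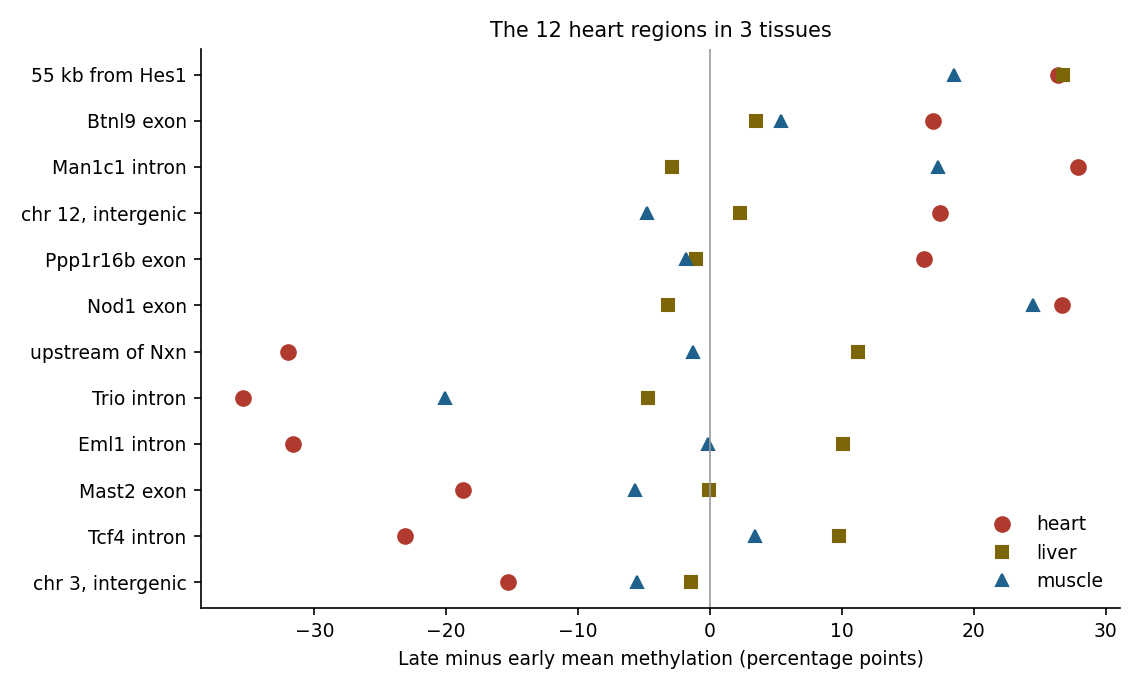
Late minus early methylation (percentage points, x axis) of the 12 named regions in heart (circles), liver (squares) and skeletal muscle (triangles). The Hes1 region lies at 26.4 points in heart and 26.8 in liver, with muscle also above 0, while the region upstream of Nxn lies at -32.0, 11.2 and -1.26 points.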

How the data were processed

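RRBS methylation fractions of heart, liver and skeletal muscle at P1, P5, P15 and P20 were taken as deposited by the authors. Each fraction divides the methylated reads of a cytosine by all its reads. Reads were aligned by the authors to mm9 with Bismark 0.7.6 and Bowtie2 (per the labels and the study's methods), who set cytosines under 10 reads to missing and removed those missing in over 20% of samples or under 10% methylated in all. Within the 18 libraries used, 11678 cytosines lacked over 20% of their values and 297 stayed under 10% throughout. A further 9 columns of the heart table (E18.5 and P10) were not used here. The number of reads behind each value is unknown, so no binomial interval is given, and the share of cytosines with a value stands in for depth. Tables on mm10 served as an alternative.

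Fractions were multiplied by 100 and compared with limma 3.58.1 in R 4.3.3 (lmFit, eBayes) in 2 groups, early and late. The study's limits (false discovery rate of at most 0.1, over 5 points) were kept. Its methods give Student's t with q-values for locus-specific data, and the test per cytosine in RRBS data is not given in the sources used here. A region value needed 50% of the region's cytosines, and 4 values on each side. Interactions needed 4 values per side and tissue. The fit with age as a factor used cytosines with 2 values in each age, and the picking fits needed 3 in each age picked on and 2 in each age measured. Single values per library were compared by two-sided exact permutation tests. Genes and positions came from GENCODE vM1 on mm9, with windows of 200 bp on either side for CpG density. The code was tested on simulated data.

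Cytosines named are the 10 with the smallest p in each direction among calls with at least 6 early and 8 late values, at most 1 per kb, the 6 regions with the smallest p in each direction, genes with 3 or more calls, list genes with a call and the smallest p of each list, and the 4 smallest p in each direction of each interaction. Members and lists were chosen with earlier results of these data known. Alternatives covered the test, scale, weights, ages, missing values, chromosomes, build, limits and each library left out in turn. The fits without the 3 libraries that stood apart or the 2 with fewest values were added after seeing the data.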

Additional observations from a re-analysis of the deposited data

Results flagged for a closer look

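Chance marks about 1 in 20 groups in which a library lies far from the others, and 3 of 72 groups examined were marked. In the Nod1 exon region P5 replicate 2 stood at 60.2% among early libraries whose next highest value was 41.4%. At the Pcbp4 intron cytosine (chr9:106357778) the same library stood at 19.6% against a next highest of 8.48%. At the Rangap1 cytosine (chr15:81534804) P15 replicate 3 stood at 69.7% among late libraries, against a next highest of 41.7%.

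The change from early to late differed between heart and liver at 1234 cytosines and between heart and muscle at 10, by the interaction test. Heart minus liver differences were 75.5 points upstream of Spsb1, 50.7 points at chr16:30499631, 49.4 points at chr14:25749840 and 62.8 points at chr8:122816351 in an intron of Gm20388. They were -82.8 points in the Faim2 intron, -57.9 points in 3930402G23Rik, -64.4 points in Inpp5j and Pla2g3 and -57.7 points at chr16:31609957, which lies 53572 bp upstream of Dlg1. Heart minus muscle differences were 36.8 points at chr5:122593732, 64.8 and 74.8 points at the Mtap4 cytosines, 53.7 points in an intron of Lpar1, a receptor of lysophosphatidic acid, and -45.1 points in Casz1.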

How the results depend on the processing

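Depth per cytosine is unknown, and 2 late libraries had values at 23.5% and 30% of the cytosines. The median call rested on 8 late values, and a missing call does not show equal levels. The count of 67 cytosines became 21 with Student's t and Storey q-values, 9 on the logit scale (2 of them among the 67), 133 with library weights, 28 with age as a 4-level factor, 30 with a linear trend, 15 of 3758 with a value in every library (4 among the 67), 10 at an adjusted p of 0.05, and 0 for P1 against P20 only or P5 against P15 only. It ranged from 10 to 89 when a library was left out, with 11, 23, 20 and 10 without P1 replicates 2, 3, 4 and 5, 35 and 16 without P5 replicates 1 and 5, 39, 40 and 34 without P15 replicates 1, 2 and 5, and 37 without P20 replicate 2. The 83 regions became 48 on the logit scale and 173 with gaps of up to 200 bp, and ranged from 36 to 109 when a library was left out, with 46, 41, 43 and 36 without P1 replicates 2, 3, 4 and 5. The 1234 differences from liver became 268 on the logit scale and 83 of 1952 with a value in every library, and ranged from 1000 to 1305 with a library left out. The 10 differences from muscle became 0 on the logit scale, 0 with a value in every library and 5 without the 3 libraries that stood apart, and ranged from 3 to 17. The count of 0 between P15 and P20 became 3 on the logit scale and ranged from 0 to 4 with a library left out on the main scale. With the replicate number as a block, which did not pair the libraries (deviations of same-numbered libraries correlated at -0.11 to 0.0696 between heart ages, 24 pairs, at -0.0245 to 0.0214 between heart and liver and at -0.018 to 0.0417 between heart and muscle), the counts were 0 cytosines, 36 regions, 468 differences from liver and 0 from muscle. The score picked on P1 and P20 fell to 0.921 points over complete cytosines. The mean level gave 1.54 points and the share over 80% gave 2.28 points over all values of each library, and the mean ranged from 1.14 to 1.9 points with a library left out. No cause was tested. None of the 20 cytosines or 12 regions named changed direction under the alternatives run. The cytosines lost their call in 278 of 679 refits, most often Tuba8 (26 of 34) and least often the cytosines near Mir219-2 and Ppara and in the Nod1 exon (4 of 34 each), and the regions in 12 of 293. The region calls lost were 6 of 24 for the Tcf4 intron, 5 of 24 for chr3:45879627-45879673 and 1 of 24 for the Eml1 intron.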
